A study of Homo sapiens with 2 samples.

Results

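The genes described here are 7 recurrently mutated drivers of head and neck squamous carcinoma, FAT1, HRAS, PIK3CA, CASP8, NSD1, KMT2D and EP300, chosen by name out of 20037 protein-coding gene records of RefSeq on GRCh38. The study recovered genomic DNA with a TCF4 antibody from spheres of CAL-27, an established human tongue squamous carcinoma line, in 1 library, and with an IgG antibody in 1 library of the same cells. The TCF4 library has a deposited list of 26642 peaks on build hg38, while the IgG antibody's library is not analysed here. No value below therefore has a replicate, the antibodies were not compared, and the sources used here do not say if the IgG library entered the peak calling. The labels do not say whether the antibody recognises the basic helix-loop-helix E protein TCF4 or the Wnt effector TCF7L2, which shares the name. The summit of each peak, its position of highest coverage, was assigned to a gene when it lay inside the gene record, within 1 kb of an end or within 50 kb, and 32 summits of the 26642 met this for at least 1 of the 7 genes.

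The 7 genes act at different points of the tumour cell. FAT1 is a large atypical cadherin of the cell surface linked to Hippo signalling. HRAS is a small GTPase that relays growth factor signals to the RAF kinases, and PIK3CA encodes the catalytic p110-alpha subunit of PI3-kinase, which feeds AKT and mTOR. CASP8 is the initiator caspase of death receptor apoptosis. NSD1 methylates histone H3 at lysine 36, KMT2D methylates lysine 4 at enhancers, and EP300 is the p300 acetyltransferase and a coactivator. FAT1, CASP8, NSD1 and KMT2D are mostly lost or truncated in these tumours, whereas HRAS and PIK3CA carry activating changes. E proteins bind the E-box, written CANNTG, and TCF/LEF factors such as TCF7L2 bind elements with a CTTTG core.

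The start regions below are shown because they separate the genes by where the peak fell. NSD1, HRAS and EP300 had a summit inside the 300 bases from 250 before to 50 after a listed start. FAT1 and CASP8 had no peak within that window. Of several listed starts, the one nearest a summit is shown, so the NSD1 window was picked by its peak. From the first listed start of NSD1, the nearest summit was 1752 bp away. The sequences are those of RefSeq on GRCh38.p14, which names the same coordinates as hg38. They read 5′ to 3′ in the direction of the gene, and capitals mark matches on either strand to the E-box CANNTG, to the TCF/LEF core as CTTTGA or CTTTGT, and to the GC box GGGCGG.
NSD1, chr5:177133350-177133649, plus strand: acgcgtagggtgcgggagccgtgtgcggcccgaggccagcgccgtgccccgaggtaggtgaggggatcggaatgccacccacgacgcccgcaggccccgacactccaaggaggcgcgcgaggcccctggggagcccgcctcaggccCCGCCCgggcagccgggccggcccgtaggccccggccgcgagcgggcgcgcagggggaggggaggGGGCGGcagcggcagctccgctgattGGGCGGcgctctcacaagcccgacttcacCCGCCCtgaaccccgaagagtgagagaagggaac
HRAS, chr11:535527-535826, minus strand: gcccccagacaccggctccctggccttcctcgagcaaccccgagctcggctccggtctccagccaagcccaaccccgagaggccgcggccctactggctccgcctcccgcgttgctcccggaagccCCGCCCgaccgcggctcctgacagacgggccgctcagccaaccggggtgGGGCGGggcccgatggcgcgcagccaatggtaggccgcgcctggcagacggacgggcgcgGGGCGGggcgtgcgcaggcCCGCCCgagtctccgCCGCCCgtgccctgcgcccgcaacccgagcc
EP300, chr22:41092342-41092641, plus strand: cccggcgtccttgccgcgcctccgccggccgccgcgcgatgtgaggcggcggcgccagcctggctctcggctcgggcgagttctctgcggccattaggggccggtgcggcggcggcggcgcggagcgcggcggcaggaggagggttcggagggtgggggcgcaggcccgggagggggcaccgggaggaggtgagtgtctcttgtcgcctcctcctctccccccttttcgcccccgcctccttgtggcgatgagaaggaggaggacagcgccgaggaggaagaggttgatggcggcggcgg
FAT1, chr4:186726647-186726946, minus strand: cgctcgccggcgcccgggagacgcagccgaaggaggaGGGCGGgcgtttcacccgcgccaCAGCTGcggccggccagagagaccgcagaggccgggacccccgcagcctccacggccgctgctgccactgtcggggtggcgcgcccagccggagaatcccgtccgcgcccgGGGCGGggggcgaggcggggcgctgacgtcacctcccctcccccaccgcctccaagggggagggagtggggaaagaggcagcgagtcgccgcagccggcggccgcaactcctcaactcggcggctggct
CASP8, chr2:201233213-201233512, plus strand: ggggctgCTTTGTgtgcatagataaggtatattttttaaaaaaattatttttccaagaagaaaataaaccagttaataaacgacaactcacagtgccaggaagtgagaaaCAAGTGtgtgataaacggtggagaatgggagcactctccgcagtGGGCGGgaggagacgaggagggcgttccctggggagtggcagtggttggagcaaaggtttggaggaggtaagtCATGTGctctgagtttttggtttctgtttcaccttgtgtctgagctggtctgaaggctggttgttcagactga

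None of the 3 windows that contained a summit held an E-box. Sequence outside the start windows was not read, so the parts of the peaks beyond them were not searched. The EP300 peak with a fold of 11.4 lies wholly outside its window. E-box letters were present in 4 of the 7 windows, namely those of FAT1, PIK3CA, CASP8 and KMT2D. This compares with 65.1% of 22175 windows at listed starts of protein-coding genes. The share was 58.7% of windows with a summit within 1 kb of the start and 69.4% of those without. In KMT2D the match was CACGTG, 286 bp from the summit and outside the peak. In PIK3CA it was CATCTG at the outer edge of the window, 58 bp from the summit and inside the peak. The core CTTTGA was found in 0 of the 7 windows and CTTTGT in 1, that of CASP8, against 11.0% and 13.6% of all windows. Among windows with a summit within 1 kb, the shares were 7.15% and 9.01%. The 2 cores share their first 5 letters, and all motifs were searched on both strands.

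GC boxes were common. GGGCGG was found in 6 of the 7 windows, with 15 matches in all, against 56.3% of all windows. The share was 76.3% of windows with a summit within 1 kb of the start and 42.7% of those without. With 7 windows, the count was not read as a departure from either. HRAS held 5 and NSD1 4, and the nearest lay 26 and 14 bp from their summits. EP300 was the window without one, and it held no match to any of the 8 motifs searched. The CCAAT letters, the core of NF-Y sites, were found in PIK3CA, NSD1 and HRAS, against 34.7% of all windows, and in HRAS their centre was 3 bp from the summit. CCGGAA, the core of ETS sites, was found in PIK3CA and HRAS, against 21.2%. The AP-1 site TGANTCA was found in 0 of 7, against 6.14%, and the palindrome TGCGCA in HRAS alone, against 9.89%. Among windows with a summit within 1 kb, the shares were 37.2% for CCAAT, 29.3% for CCGGAA, 4.21% for TGANTCA and 14.5% for TGCGCA. A match describes these letters and does not mark a bound site.

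By record ends, 4 of the 7 genes had a summit within 1 kb, PIK3CA, KMT2D, HRAS and EP300, against 41.2% of all protein-coding gene records. Strand and listed starts allowed the start to be separated from the finish. Within 1 kb of a listed start lay a summit in 5 of the 7, with NSD1 added, against 44.5% of the 15842 protein-coding genes with a listed start. With 7 genes, neither count was read as a departure from the background. A summit inside the record was found in 3 of 7 (NSD1, KMT2D and HRAS) against 38.8% of records, and a summit inside or within 50 kb in 6 of 7 against 77.4%. In all, 4 summits lay inside the 586 kb of the 7 records, which is 0.682 per 100 kb (exact Poisson interval 0.186 to 1.75), against 1.09 per 100 kb over all protein-coding records. The interval covers counting error only and includes the value of all records.

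**Figure D1:**
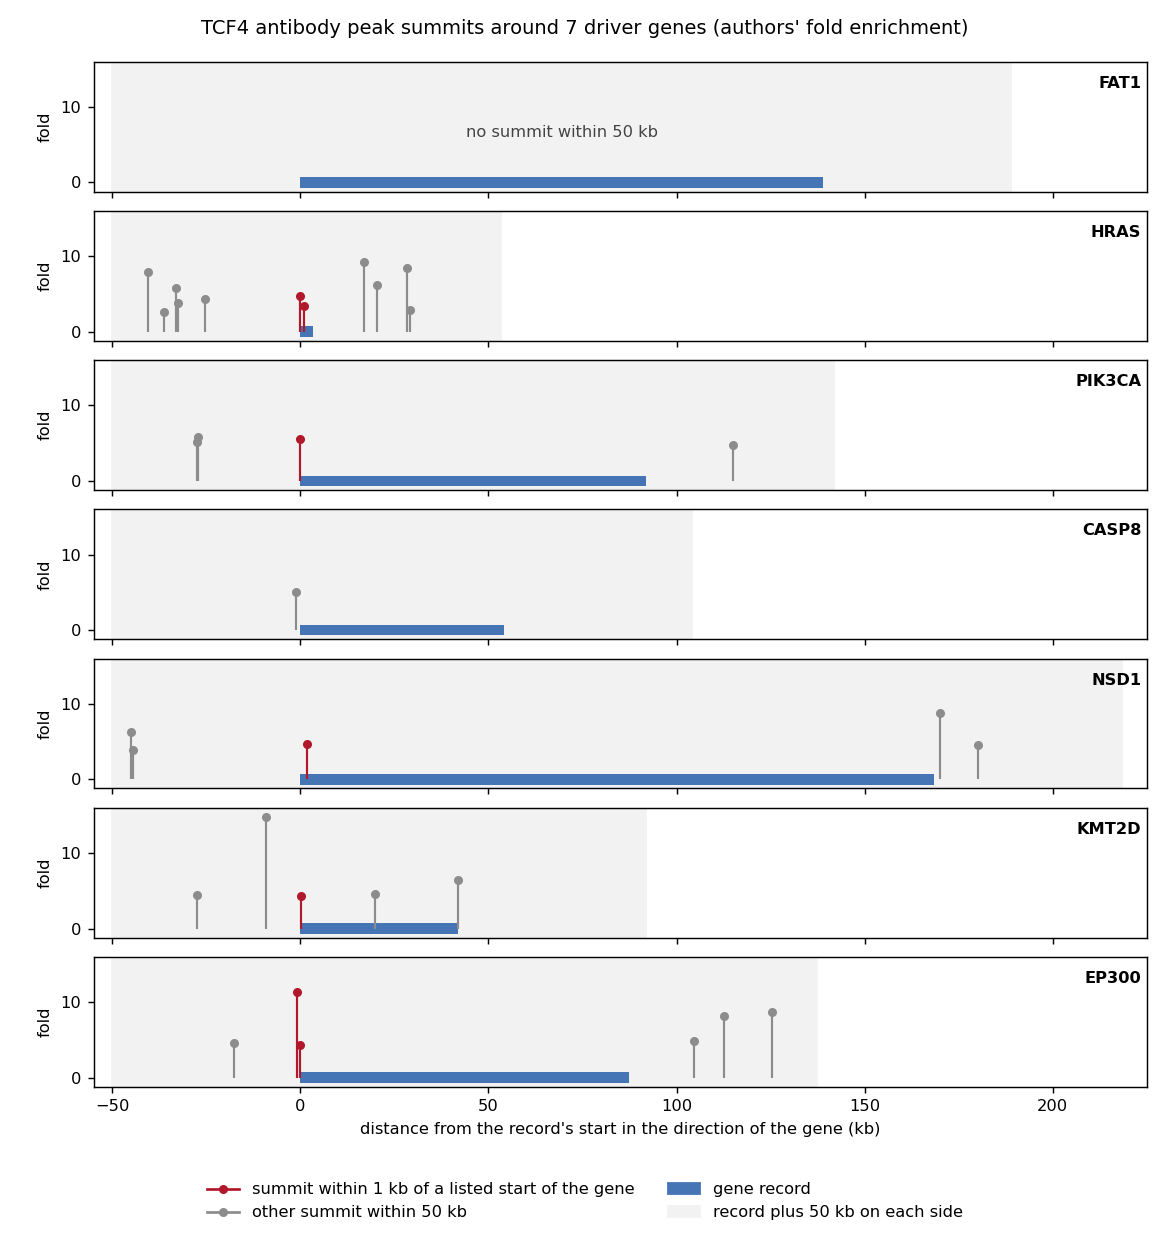
Summits of TCF4 antibody peaks around the 7 driver genes, with the distance from the record's start in kb on the x axis and the authors' fold enrichment on the y axis. Red points are summits within 1 kb of a listed start of the gene and grey points are other summits within 50 kb of the record (blue). FAT1 is empty, HRAS has 11 summits crowded around a record of 3.33 kb, and the tallest point, with a fold of 14.8, lies 9.22 kb before KMT2D.

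FAT1, on chromosome 4 from 186587794 to 186726696, had no summit in its 139 kb record or within 50 kb of it. The nearest summit lay 192754 bp beyond its high-coordinate end, which is its start side, and the next lay 760491 bp beyond the other end. The gene therefore sat in a stretch of 1090 kb with no peak. Of 1188 protein-coding genes with a length within 20% of that of FAT1, 18.9% also had no summit within 50 kb and 44.4% had a summit at an end. The start of FAT1 is not poor in CpG. Its window held 40 CpG, more than 90.2% of windows, and of the 2174 windows with at least that many, 59.4% had a summit within 1 kb of the start.

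Chromosome 4 was sparse as a whole. A summit at an end was found in 19.2% of its 770 protein-coding records, against 39.3 to 48.3% on the chromosomes of the other 6 genes. Among protein-coding genes at least as long as FAT1, 62.1% of 132 on chromosome 4 had no summit within 50 kb, against 22.5% of 2248 over all chromosomes. The part of regional copy number or of sequence that can be mapped was not tested. A missing peak does not show missing binding: the weakest peaks of the list rested on 5 fragments, so fewer fragments than that would not have been listed.

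HRAS had the most peaks of the 7 genes. Its record on chromosome 11, from 532242 to 535576, is 3.33 kb long and lies inside the longer record of LRRC56, a leucine-rich repeat protein. The summit closest to the start lay 47 bp before it, and its fold was 4.69 on 28 fragments (exact Poisson interval 18.6 to 40.5). A further summit lay 847 bp after the start, with a fold of 3.45 on 21 fragments (13.0 to 32.1). It lay inside both records, whereas the summit before the start lay inside LRRC56 alone. The nearest listed start of LRRC56 was 16635 bp from the peak at the HRAS start.

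In fragments, the peak at the HRAS start exceeded 92.1% of all peaks, but in fold it exceeded 36.2%. The caller's local background there was 5.18 fragments, 5.38 times the median of all peaks (0.962) and also above the median of chromosome 11 (1.26). The HRAS neighbourhood was dense in peaks: 11 summits lay inside or within 50 kb, and 4.77% of 901 genes of like length had as many. Within 500 kb there were 61, against a median of 14 over all protein-coding genes. Without the 5% of peaks with the highest local background, HRAS no longer had a summit at an end.

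The other 9 summits around HRAS lay mostly at ends of neighbouring genes. A peak 123 bp from the start of RNH1, the ribonuclease inhibitor, had a fold of 8.46 on 46 fragments. A weaker summit inside RNH1 lay 329 bp from a listed start of RNH1 and 23 bp from the LRRC56 end. Its fold was 2.85 on 15 fragments. A peak with a fold of 9.18 on 29 fragments lay 291 bp from a listed start of LRRC56. The peak between LMNTD2 and RASSF7, a RAS association domain protein, was 100 and 132 bp from their ends, with a fold of 4.39 on 22 fragments. A summit 42 bp from an end of MIR210, the microRNA known as a hypoxia response gene, had a fold of 3.75 on 16 fragments, and 1 at its host MIR210HG had 5.84 on 25. PHRF1, a ubiquitin ligase, had a peak 316 bp from its start with a fold of 7.94 on 34 fragments. The weakest of all, with a fold of 2.66 on 14 fragments, lay 255 bp from a start of the unnamed record LOC124902805. The last lay inside LRRC56, 3718 bp from its nearest listed start, with a fold of 6.18 on 21 fragments.

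PIK3CA had a single peak at its start and none in the gene. The record lies on chromosome 3 from 179148126 to 179240093. The summit lay 74 bp before the record and 305 bp before the listed start, with a fold of 5.50 on 9 fragments (exact Poisson interval 4.12 to 17.1). It also lay 79 bp from the end of PIK3CA-DT, the divergent long non-coding RNA, so the summit lies in the gap between the records and cannot be assigned to either. No summit fell in the 92.0 kb record, as in 46.0% of 1514 genes of like length. The local background was 0.820 fragments, near the median of chromosome 3 (0.766).

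The other 3 summits near PIK3CA were of similar height. A pair lay 27.2 and 27.5 kb before the record, inside PIK3CA-DT, with folds of 5.76 and 5.14 on 9 and 8 fragments. The last lay 23.0 kb beyond the record inside KCNMB3, a potassium channel subunit, with a fold of 4.75 on 8 fragments. All 4 peaks rested on 8 or 9 fragments, and their intervals overlap.

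CASP8 fell just outside the window of 1 kb. Its 1 summit lay 1124 bp before the record on chromosome 2, which runs from 201233463 to 201287711. Its fold was 4.99 on 7 fragments (exact Poisson interval 2.81 to 14.4). In CASP8 the caller's background was 0.604 fragments, below the chromosome's median of 0.756. No other summit lay within 50 kb, and the next one beyond the gene was 66721 bp away. CASP10, the paralogue of CASP8 beside it, ended 2933 bp from the same summit. The summits just inside the window were those of EP300 at 937 bp and HRAS at 847 bp.

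The start of CASP8 also differed in composition. Its window held 6 CpG and 46.3% GC, whereas the other 6 windows held 22 to 40 CpG. Windows with 5 to 9 CpG had a summit within 1 kb in 14.4% of cases, against 61.2% of those with 35 or more. CASP8 has a further 2 listed starts 24572 and 27073 bp into the record, and the nearest summit was 25696 and 28197 bp from them.

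**Figure D2:**
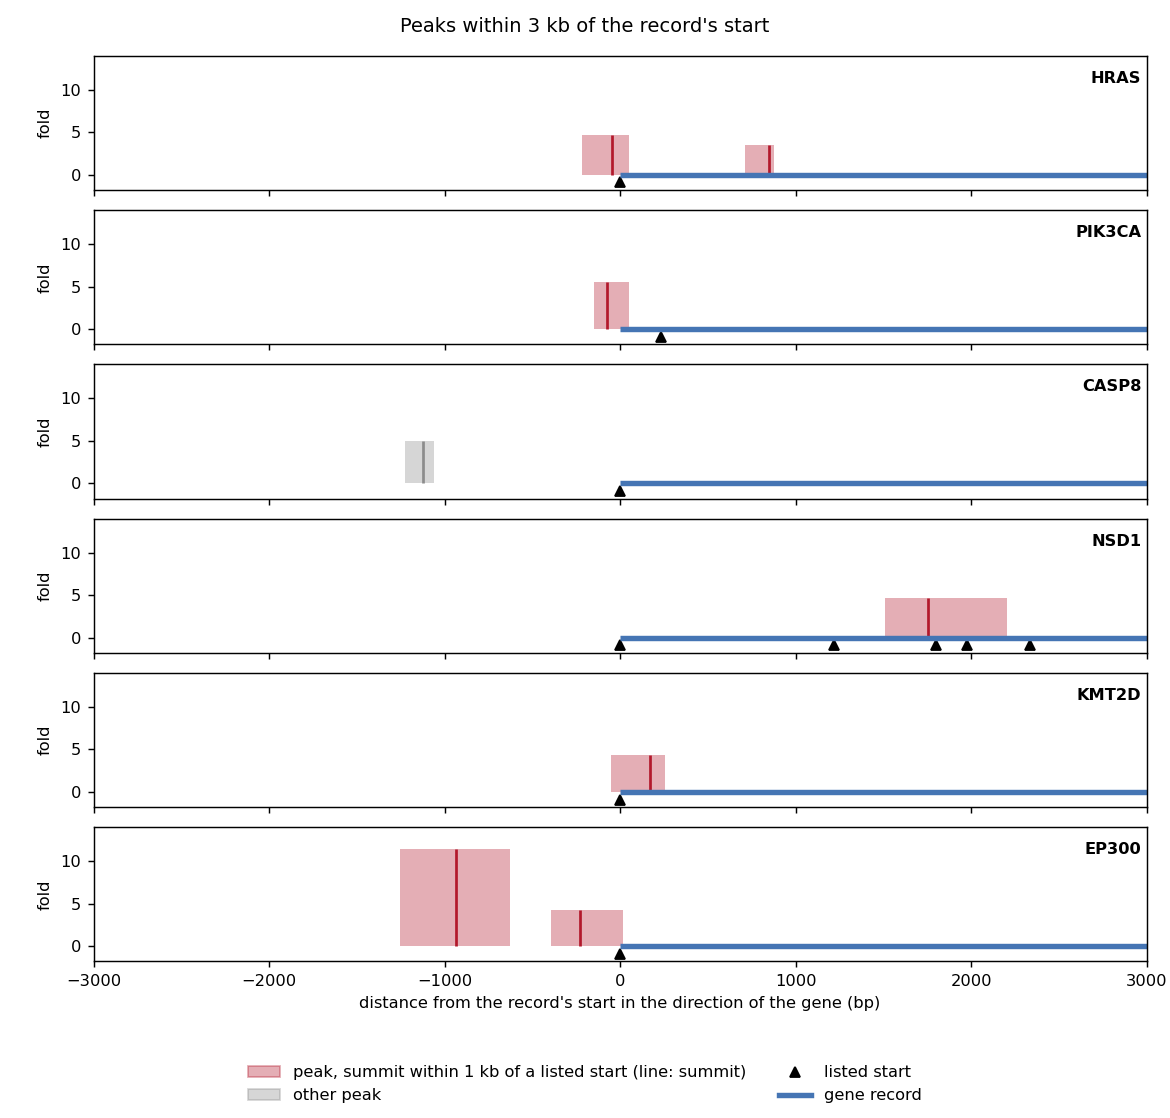
Peaks within 3 kb of the record's start for the 6 genes with a summit within 50 kb, with the distance from that start in bp on the x axis and the authors' fold enrichment as the height of each box. Lines mark summits and triangles listed starts. The NSD1 peak covers 2 of its 5 listed starts, and the EP300 peak with a fold of 11.4 stands apart from the weaker peak nearer the start.

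In NSD1 the peak lay at an inner listed start, away from the end of the record. The record lies on chromosome 5 from 177131798 to 177300213. Its summit lay 1752 bp inside the record, outside the window at the end, and 50 bp before the third of 5 listed starts. The peak was 693 bp wide, wider than 97.9% of all peaks, and covered 2 of the 5 starts. It had a fold of 4.72 on 12 fragments (exact Poisson interval 6.20 to 21.0). The window at that start, picked as the one nearest the summit, held 37 CpG and lay wholly inside the peak. It was the only summit in the 168 kb record. Of 954 genes of like length, 60.3% had at least 1 summit inside.

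The strongest peak near NSD1 lay 1.71 kb beyond the finish of NSD1 inside RAB24, a small GTPase of membrane traffic, with a fold of 8.78 on 41 fragments. MXD3, a MAX dimerisation protein, had a peak 662 bp from its start with a fold of 4.60 on 18 fragments. FGFR4, a fibroblast growth factor receptor, had a pair of summits 184 and 404 bp from its start, with folds of 6.30 and 3.82 on 17 and 10 fragments.

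KMT2D carried summits at both ends and in the middle. The record lies on chromosome 12 from 49018978 to 49060794 and is read from its high-coordinate end. The peak at the start had its summit 168 bp into the gene, with a fold of 4.36 on 10 fragments (exact Poisson interval 4.80 to 18.4). A second summit lay 19.8 kb into the gene with a fold of 4.52 on 12 fragments. The tallest of the 3, with a fold of 6.46 on 17 fragments (9.90 to 27.2), lay 139 bp beyond the finish of KMT2D. That summit was 63 bp from the start of PRKAG1, a regulatory subunit of AMP-activated kinase, which begins just beyond KMT2D. Of 2028 genes of like length, 17.2% had 2 or more summits inside.

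The highest fold near any of the 7 genes was also beside KMT2D. A peak 31 bp from an end of RHEBL1, a homologue of the mTOR activator RHEB, had a fold of 14.8 on 34 fragments (exact Poisson interval 23.5 to 47.5) and exceeded 99.1% of all peaks in fold. It lay 9.22 kb before the start of KMT2D. The last summit lay inside DHH, a Hedgehog ligand, 1694 bp from an end, with a fold of 4.51 on 9 fragments. RHEBL1 has no listed start in the table used.

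EP300 had the peak with the highest fold at a start among the 7 genes, while HRAS had the most fragments. The record lies on chromosome 22 from 41092592 to 41180077. A peak 630 bp wide had its summit 937 bp before the start, with a fold of 11.4 on 26 fragments (exact Poisson interval 17.0 to 38.1). It exceeded 96.8% of all peaks in fold and 94.5% of peaks at protein-coding gene ends. A weaker peak lay 226 bp before the start, with a fold of 4.30 on 9 fragments (4.12 to 17.1). The microRNA record MIR1281 lies in the same promoter, with an end 147 bp from the weaker summit. No summit lay in the 87.5 kb record, as in 46.2% of 1542 genes of like length.

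Around EP300, L3MBTL2, a Polycomb-related methyl-lysine reader, had a peak 16 bp from its start with a fold of 8.18 on 14 fragments. Another peak inside L3MBTL2, 258 bp from an end of its antisense record, had a fold of 8.77 on 20. A summit 139 bp from an end of EP300-AS1 had a fold of 4.82 on 9 fragments. The last lay 17.6 kb before EP300 beside the pseudogene ACTBP15, with a fold of 4.58 on 6 fragments. Pseudogenes share sequence with their parent genes, so that value is uncertain.

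**Figure D3:**
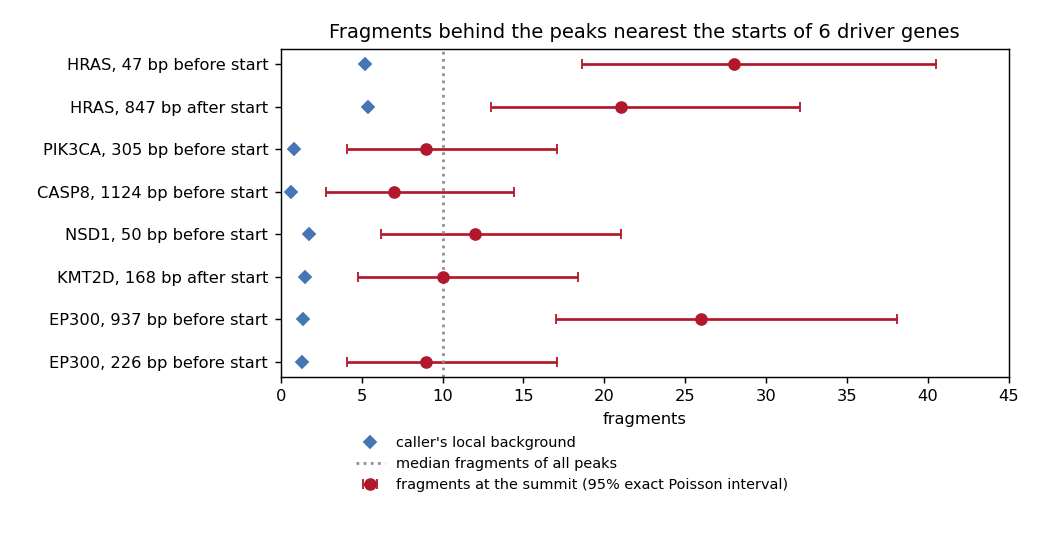
Fragments at the summit (red, with 95% exact Poisson intervals) and the caller's local background (blue) for the peaks nearest the starts of the 6 genes with a summit within 50 kb. The HRAS peaks have 28 and 21 fragments over backgrounds above 5, while the EP300 peak at 937 bp has 26 over 1.36. The dotted line is the median of all peaks, 10 fragments.

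The 7 summits within 1 kb of a start had a median fold of 4.69 and a median of 12 fragments, with ranges of 3.45 to 11.4 and 9 to 28. Peaks at protein-coding gene ends had a median fold of 5.81, also on 12 fragments. With a −log10 q of at least 5, 2 of the 7 genes, HRAS and EP300, still had a start peak, against 29.6% of protein-coding genes with a listed start. With at least 10 only EP300 did, against 15.3%. KMT2D kept a summit at an end at 5, which was the one shared with PRKAG1. Of the 25 other summits within 50 kb, 13 lay within 1 kb of an end or listed start of another protein-coding gene, and 36.2% of all summits lay at such a place. These 13 had a median fold of 6.46 on a median of 18 fragments. The 36.2% covers every peak, whereas the 25 leave out start summits of the 7 genes and include 9 around HRAS, where peaks were dense. The shares are therefore not like for like.

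CpG content moved with peaks across all starts. Windows with a summit within 1 kb had a median of 28 CpG, and windows without one 11. The share of windows with a summit was 4.15% at 0 to 4 CpG and 62.5% at 30 to 34. Of the 5 driver genes with a start peak, PIK3CA had the fewest CpG (22) and HRAS and EP300 the most (40). FAT1, with 40 as well, had no peak. The part of CpG content in the calls was not tested.

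**Figure D4:**
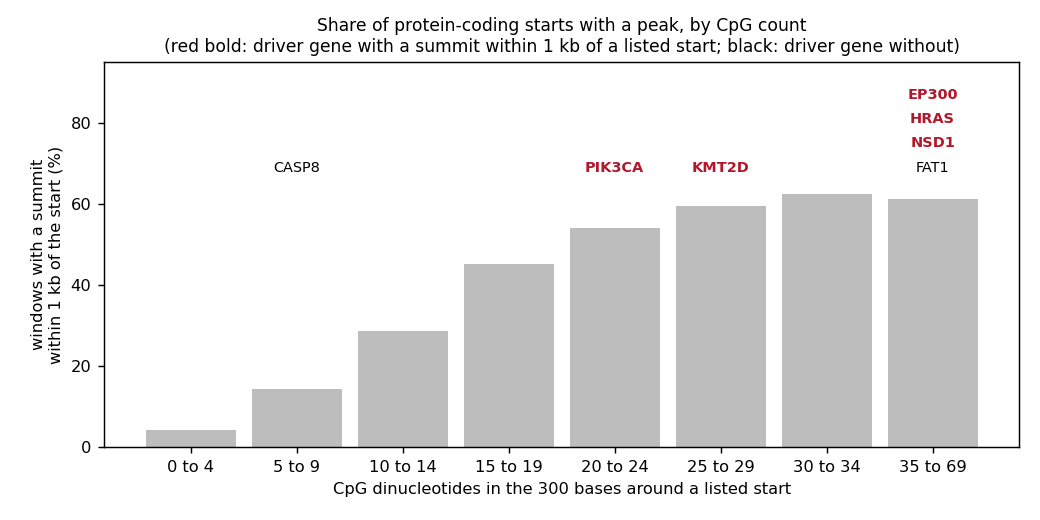
Share of 22175 start windows of protein-coding genes with a summit within 1 kb (y axis, percent) by the number of CpG in the window of 300 bases (x axis), with the 7 driver genes named over their own bin. CASP8 stands in a bin at 14.4%, and FAT1 stands without a peak in the bin of NSD1, HRAS and EP300, where 61.2% of windows had one.

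The families of the 7 genes were mixed. FAT4, like FAT1 on chromosome 4, had no summit within 50 kb, FAT2 had none at an end and 4 inside, and FAT3 had 9 inside a record of 672 kb with a fold of 3.79 at an end. HRAS had a fold of 4.69 on 28 fragments, against 8.64 on 14 for its paralogue NRAS. PIK3CA had 5.50 on 9 fragments, against 5.37 on 9 for PIK3CB, and PIK3CD had no summit at an end but 1 within 1 kb of a listed start. CASP10 had none at an end, as CASP8. NSD1 also had none at an end, against folds of 5.15 on 9 fragments for NSD2 and 5.51 on 8 for NSD3. KMT2D had a fold of 6.46 on 17 fragments at its finish, in the peak shared with PRKAG1, and 4.36 on 10 at its start. KMT2A had 7.13 on 12 at an end, and KMT2B and KMT2C had none at an end. EP300 had 11.4 on 26 fragments, against 6.89 on 14 for its paralogue CREBBP. Where both genes of a pair had a peak, the exact Poisson intervals of their fragments overlap.

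The pathways around the 7 genes were described with 8 lists of 132 genes in all. A summit at an end was found in 91 of them (68.9%), against 41.2% of all protein-coding records, with a median fold of 6.01, against 6.38 for all protein-coding records with a peak at an end. Without the 7 genes it was 87 of 125. No list was tested, and the lists were not matched for CpG or gene activity. They were chosen with earlier results of these data known, so the difference from all records was not read as a finding. RAS and RAF signalling had the highest share, 17 of 18 genes, with none at BRAF. SHOC2, a scaffold that activates RAF, led with a fold of 11.0, then NRAS and the kinase MAP2K1 with 8.45. Among CBP/p300 and other lysine acetyltransferases it was 11 of 13, with KAT8 at 10.8, KAT7 at 8.91 and the adaptor TADA2A at 8.50 behind EP300. KAT2B and KAT6B had none at an end, but KAT6B had a summit within 1 kb of a listed start.

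The PI3K, AKT and mTOR list had 13 of 18. The kinase AKT2 had a fold of 11.1, MTOR 10.3, the GTPase RHEB 9.90 and the kinase PDPK1 9.47, while AKT1 and the lipid phosphatase INPP4B had none at an end. KMT2 methyltransferases and their complexes had 10 of 16, led by MEN1 (9.57), with none at ASH2L, KDM6A and KMT2B. Besides KMT2A, the complex subunit RBBP5 had 6.62 and the cofactor HCFC1 6.48. NSD and other H3K36 methyltransferases had 4 of 7, with ASH1L at 7.92 and SETD2 at 5.42. The 3 without a summit at an end were NSD1, SETD3 and SETMAR, and NSD1 and SETD3 had 1 within 1 kb of a listed start.

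Lists nearer the background were those of death receptor apoptosis, with 9 of 18, and of FAT cadherins and the Hippo core, with 8 of 17. In the apoptosis list the inhibitors of apoptosis BIRC3 (12.4), XIAP (9.95) and BIRC2 (8.53) and the adaptor TRAF2 (8.85) led, and BID, CASP10 and CASP6 had none. In the Hippo list the kinase STK4 had a fold of 9.39, NF2 8.66, YAP1 7.14 and LATS2 5.40. The protocadherin DCHS2, like FAT1 and FAT4 on chromosome 4, had no summit within 50 kb. Other head and neck cancer driver genes had 23 of 31, with CYLD at 13.7, RAC1 at 10.6 and RHOA at 9.87, and none at AJUBA, CCND1 and FADD. Squamous epithelium markers had a summit at an end in 7 of 8, all but TP63, which had 2 inside its record. Fibroblast, endothelium and lymphocyte markers had 1 of 5 each, against 41.2% of all protein-coding records. By listed starts it was 3 of the 4 squamous markers that have one, and 0 of 1, 0 of 2 and 1 of 2 in the other groups. With so few genes, these counts were not read as a contrast between cell types. A peak is not a measure of expression.

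**Figure D5:**
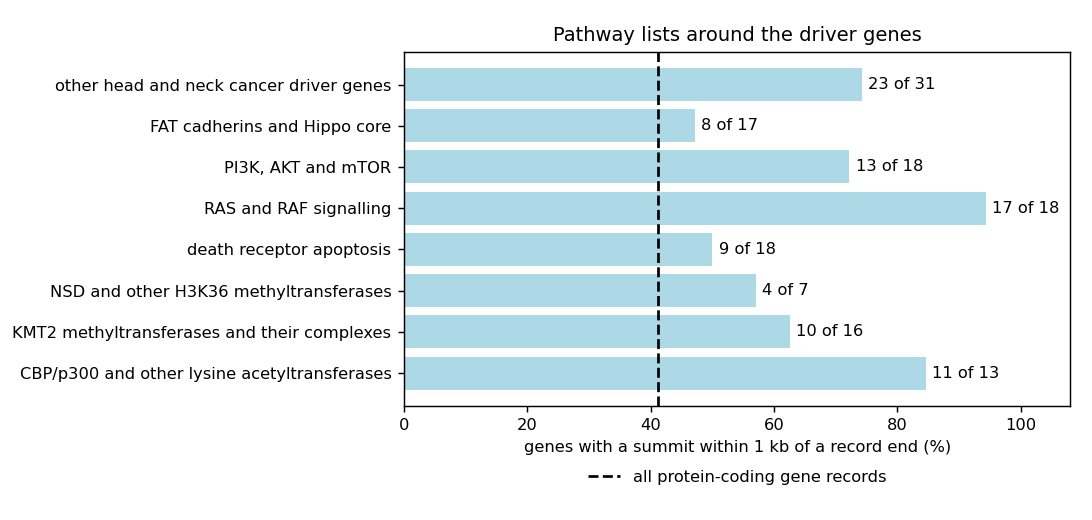
Share of genes with a summit within 1 kb of a record end (x axis, percent) in 8 pathway lists, with the counts beside the bars and all protein-coding gene records as the dashed line at 41.2%. RAS and RAF signalling stands highest with 17 of 18, and FAT cadherins and the Hippo core lowest with 8 of 17.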

How the data were processed

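The series holds 1 library each for the TCF4 antibody and for IgG. Per the submitters' processing notes, Bowtie2 2.3.5.1, SAMtools and MACS2 2.2.7.1 were used with hg38, and settings, total depth and use of the IgG library are not given in the sources used here. The authors' deposited list gives the fold enrichment (a ratio over the caller's local background), the −log10 of the p-value and of the q-value, a deposited score equal to 10 times the −log10 q, and the summit's offset in bp.

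Fragments and background were solved from fold = (fragments + 1) / (background + 1) and a Poisson tail, all within 0.0001 of the −log10 p, and tested on simulated data. Poisson intervals are exact at 95% and cover counting error only. Genes are 20037 protein-coding of 59679 RefSeq records (GRCh38.p14). Strand and starts come from 22175 start windows covering 15842 of them, with all 7 genes matched. Genes of like length are within 20%. Members and lists were chosen with earlier results of these data known. Named genes are the 7, neighbours with an end within 1 kb of a summit or nearest to one, family members, and in each list the 4 highest folds and up to 3 genes without, except for some list members that were left out. Alternatives were stricter thresholds and other windows, overlaps and flanks. Computation used SciPy 1.17.1 and NumPy 2.4.6 in Python 3.11.15, tables pandas 2.3.3, and plots Matplotlib 3.10.9.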

Additional observations from a re-analysis of the deposited data

How the results depend on the processing

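Peaks rest on few fragments, and stricter thresholds lowered every count. With a −log10 q of at least 5, at least 10 or at least 20 fragments, the 7 genes held 15, 8 and 12 summits within 50 kb in place of 32, and 0, 0 and 1 inside in place of 4. Genes with a summit at an end numbered 3, 1 and 2 of 7 in place of 4, against 27.1, 14.1 and 11.0% of all protein-coding genes in place of 41.2%, and 56, 30 and 22 of the 132 listed genes in place of 91. Any overlap of the whole peak gave 7 inside. Flanks of 20 and 100 kb gave 17 and 61 summits. Windows of 2 and 5 kb gave 6 of 7 genes, adding CASP8 and NSD1, against 45.4 and 51.7% of all protein-coding genes, and starts alone gave 5, against 44.5% of those with a listed start. FAT1 had none in any window up to 5 kb. The 8 lists stayed within 1.5 times their counts in 50 of 72 comparisons and were lower in the other 22. Starts alone gave 70 of the 100 listed genes that have a listed start, so list counts at that setting are over fewer genes. No paired analysis was possible because each antibody has 1 library and only the TCF4 list was used.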

Other observations

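The NSD1 arrangement was found in other genes too. Of 11789 protein-coding records with no summit within 1 kb of an end, 613 (5.20%) had a summit within 1 kb of a listed start. Only 15842 of 20037 records have a listed start and 4045 have more than 1. The share is therefore not a rate among genes that could show it. The CASP8 arrangement, with the nearest end between 1000 and 1500 bp from a summit, was found in 497 (4.22%). Within 500 kb of the record, FAT1 had 1 summit, and 7.99% of all protein-coding genes had as few or fewer, while EP300 had 42, NSD1 34, KMT2D 28, PIK3CA 19 and CASP8 14.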
